A study of Homo sapiens with 8 samples.

Results

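The genes E2F1, BCL2L11, ZBTB4, ANKFY1, FYCO1, TGFBR2, STAT3 and RBL2, known targets of the miR-17 family of microRNAs, were followed through ribosome footprint libraries of 293T cells, a line of human embryonic kidney origin with large T antigen of SV40. They were picked by gene symbol from a list of known targets, and all 8 were found among the 17179 gene symbols of the count tables, each as 1 feature, and all 8 passed the filter on low counts. The libraries formed 4 groups of 2: cells with shNBD1, a short hairpin RNA described as non-cleaving, their shRNA control, cells with miRNA inhibitors, and the negative control for the inhibitors. All were 293T cells grown in the same medium and lysed with cycloheximide, which holds ribosomes on mRNA. The sources used here do not give which microRNAs the inhibitors were directed against, the sequence and target site of the hairpin, or how either was delivered. The design text asks how translation stands under both treatments.

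MicroRNAs guide Argonaute proteins to messages through the seed, a short stretch near their 5′ end that pairs with the message, mostly in its 3′ untranslated region. Argonaute then recruits TNRC6 scaffold proteins and deadenylases, which lower translation and shorten the life of the message. The miR-17 family comes from several related gene clusters, is induced by MYC and E2F factors, and is known for promoting proliferation by holding down inhibitors of the cell cycle, pro-apoptotic genes and TGF-beta signalling.

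The 6 members of the family are shown because their shared seed is what defines the target group. They are written 5′ to 3′ as mature RNAs from RefSeq (GRCh38.p14), with the seed, bases 2 to 8, in capitals.
miR-17-5p: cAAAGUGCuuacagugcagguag
miR-20a-5p: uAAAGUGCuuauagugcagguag
miR-20b-5p: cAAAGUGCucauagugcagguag
miR-106a-5p: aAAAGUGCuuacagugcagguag
miR-93-5p: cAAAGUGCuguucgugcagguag
miR-106b-5p: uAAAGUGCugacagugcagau
All 6 carry the seed AAAGUGC, whose perfect complement in a message reads GCACUUU. Outside the seed miR-106a-5p differs from miR-17-5p at 1 position, miR-20a-5p and miR-20b-5p at 2 each and miR-93-5p at 4. Of 2370 mature microRNAs in the table, 8 have this seed, the other ones being miR-519d-3p and miR-526b-3p. The mature sequences of miR-17-5p and miR-20a-5p lie on chromosome 13 (chr13:91350618-91350640 and chr13:91351072-91351094, plus strand), those of miR-93-5p and miR-106b-5p on chromosome 7 (chr7:100093815-100093837 and chr7:100094043-100094063, minus strand) and those of miR-20b-5p and miR-106a-5p on the X chromosome (chrX:134169850-134169872 and chrX:134170244-134170266, minus strand). No microRNA was measured, and untranslated regions of the targets were not used here, so whether each message carries this site was not examined.

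Total counts ran from 11218980 to 19854218 per library. Replicates differed, as an SD of log2 values over genes, by 0.12 with shNBD1, 0.11 in its control, 0.19 with the inhibitors and 0.17 in their control. Inhibitor replicate 2 and inhibitor control replicate 1 stood apart on the third principal component, at 26.7 and -21.9, while the other 6 libraries lay between -9.60 and 8.88. A fit without both, used below, sets inhibitor replicate 1 against inhibitor control replicate 2, with no replicate in either group. Its p-values and calls for the inhibitors rest on the spread of the shRNA arm, whose replicates differed less. Leaving out 1 library likewise leaves its group without a replicate. A pair of features, ZNF354B and ST8SIA1, took 11.3% of the counts in inhibitor replicate 2 and between 5.99% and 9.99% elsewhere. The NBD1 reporter row of the files stood at 7040 and 7233 CPM (counts scaled to a common library size) with shNBD1, against 9129 and 9082 CPM in the shRNA control. Of the 293T markers, KRT8, KRT18 and VIM were abundant in every library and PAX2 and NEFM were near 1 to 3 CPM. Summed over 7 markers they stood at 8195 to 8534 CPM with shNBD1, against 5161 to 5201 CPM in its control, and at 5033 to 5606 CPM with the inhibitors, against 4535 to 5562 CPM in theirs. Most of this sum is VIM, which averaged 6036 CPM with shNBD1, against 3565 CPM in its control, while SOX2 of the same list fell by 0.54 ± 0.16 on the log2 scale (adjusted p = 0.0459, edgeR). The 10 markers of other cell types summed to 433.7 to 440.0 CPM with shNBD1, against 373 to 404 CPM in its control, and to 459.9 to 505 CPM with the inhibitors, against 567 to 573 CPM in theirs, with ACTA2 the most abundant and PTPRC at 0 in 6 libraries, ALB in 5 and CD3E in 5. Of these, CD68 fell with shNBD1 by 0.51 ± 0.12 on the log2 scale (adjusted p = 0.017). The part of these shifts in the results was not tested. A footprint count does not tell apart fewer cells, less message per cell and fewer ribosomes per message, and with no label for separate cultures p-values cover only how these libraries vary, and that variation may be technical.

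With shNBD1, footprints on ANKFY1 fell to 0.51 of the shRNA control level, while those on ZBTB4, FYCO1 and TGFBR2 rose, by 1.88-fold, 1.37-fold and 1.28-fold. The other 4 genes, E2F1, BCL2L11, STAT3 and RBL2, did not pass the test. So 3 of 8 rose and 1 fell at an adjusted p under 0.05 in edgeR's quasi-likelihood test, where 18.3% of the 13306 genes tested were called in either direction, 9.18% higher and 9.15% lower. With the miRNA inhibitors ZBTB4, FYCO1 and TGFBR2 stood at 1.49, 1.42 and 1.35 times the inhibitor control, but 0 of the 8 genes passed the test, where 0.12% of all genes were called, 0.0376% higher and 0.0827% lower, and 2183 had an unadjusted p under 0.05. The median log2 fold change of the 8 genes was 0.11 with shNBD1 and 0.13 with the inhibitors, beside 0.0013 and 0.0066 over all genes tested, and 5 of 8 were positive in each comparison. The comparisons with shNBD1 and with the inhibitors share no library. CPM values below are scaled by TMM library sizes and serve to compare groups within a gene, not genes with each other.

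**Figure D1:**
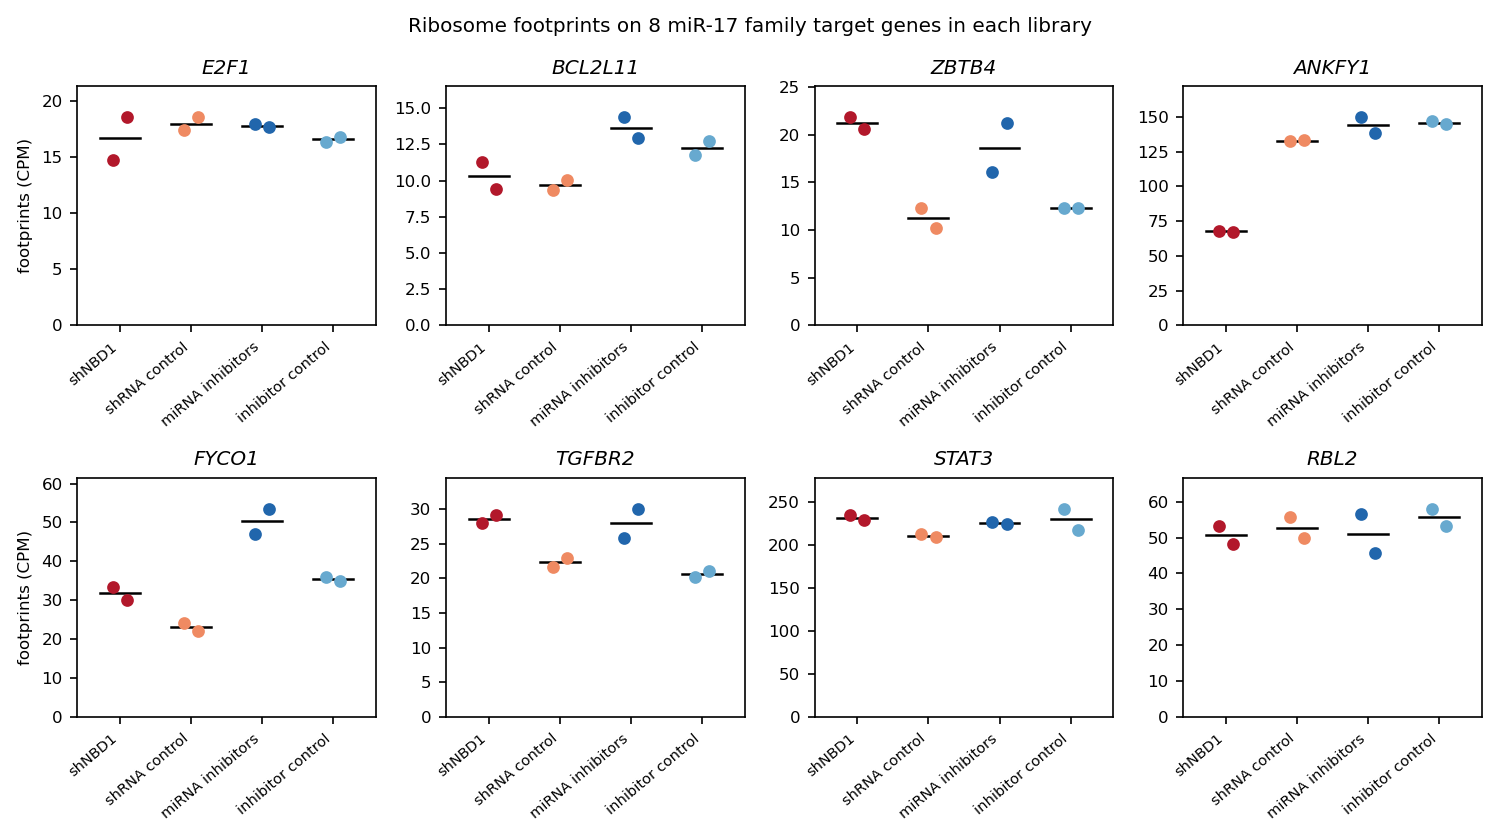
Footprints in CPM (linear axes from 0) on each of the 8 genes, with 1 point per library, 2 libraries per group and a line at the mean. ANKFY1 sits near 67 to 68 CPM in both shNBD1 libraries and near 133 CPM or above in the other 6, and ZBTB4, FYCO1 and TGFBR2 sit higher in both treated groups than in the matching controls.

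Of the vesicle traffic genes, ANKFY1 encodes rabankyrin-5, an effector of the early endosome GTPase Rab5 (gene ENSG00000185722, chromosome 17, 4163821 to 4263979, GRCh38). It had 68.0 and 67.2 CPM in the shNBD1 libraries, against 133 and 133 CPM in the shRNA control. It had 149.8 and 138 CPM with the inhibitors, against 147 and 145 CPM in the inhibitor control. Both shNBD1 libraries lay below every other library, and the inhibitor groups overlapped. With shNBD1 ANKFY1 fell by 0.98 ± 0.07 on the log2 scale (SE; adjusted p = 2.95e-05, edgeR), the 15th smallest p of all genes, and 4.71% of genes changed by more. With the inhibitors it was -0.02 ± 0.07 (adjusted p = 0.923), with a 95% interval from -0.16 to 0.13. The difference between these effects, -0.96 ± 0.10, passed the test (adjusted p = 0.000563). From the lowest level up, the groups ran shNBD1, shRNA control, miRNA inhibitors and inhibitor control, and past the step from shNBD1 to its control the neighbours did not differ beyond their spread (adjusted p = 0.206 for the shRNA control against the inhibitors).

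FYCO1 encodes an adaptor that joins vesicles marked by LC3 and Rab7 to kinesin for transport along microtubules (ENSG00000163820, chromosome 3, 45917903 to 45995824). It had 33.4 and 30.1 CPM with shNBD1, against 24.2 and 22.2 CPM in the shRNA control. It had 47.0 and 53.5 CPM with the inhibitors, against 35.9 and 34.9 CPM in the inhibitor control. In both arms the treated libraries lay above both controls, as those of 34.7% of all genes did with shNBD1 and 20.5% with the inhibitors. FYCO1 rose by 0.45 ± 0.10 with shNBD1 (log2, adjusted p = 0.0139), and stood at 0.50 ± 0.10 with the inhibitors (adjusted p = 0.0803, rank 47 by p). The difference between the effects was -0.05, with a 95% interval from -0.36 to 0.26 (adjusted p = 0.867). FYCO1 was also the 1 gene of the 8 called between the controls, with 23.2 ± 1.45 CPM for the shRNA control and 35.4 ± 0.722 CPM for the inhibitor control (SD, n = 2 each), a log2 fold change of -0.61 ± 0.10 (adjusted p = 0.00218), where 27.1% of all genes were called. From the highest level down, the groups ran inhibitors, inhibitor control, shNBD1 and shRNA control, and the inhibitor control and shNBD1 did not differ beyond their spread (adjusted p = 0.252). Leaving out any 1 library of its arm ended the call with shNBD1, with adjusted p from 0.0514 without shNBD1 replicate 2 to 0.126 without shRNA control replicate 2. The inhibitor value was 0.59 without inhibitor replicate 1, 0.48 without inhibitor control replicate 2 and 0.43 without both libraries that stood apart. It passed with no count filter (0.49, adjusted p = 0.0263), with a term for replicate number in the model (0.50, adjusted p = 0.0122) and with DESeq2.

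Of the transcription factors, ZBTB4 encodes a zinc-finger protein that binds methylated CpG and represses transcription (ENSG00000174282, chromosome 17, 7459378 to 7484249). It had 21.8 and 20.6 CPM with shNBD1, against 12.3 and 10.2 CPM in the shRNA control. It had 16.1 and 21.2 CPM with the inhibitors, against 12.3 and 12.4 CPM in the inhibitor control. All 4 treated libraries lay above all 4 control libraries, a pattern that was not counted over all genes. Within an arm, 34.7% of all genes lay wholly above the controls with shNBD1 and 20.5% with the inhibitors. The inhibitor replicates of ZBTB4 differed by 1.32 times, where counting error alone is 6.24% and 6.68% of their values. ZBTB4 had a log2 fold change of 0.91 ± 0.15 with shNBD1 (adjusted p = 0.00266) and 0.58 ± 0.14 with the inhibitors (adjusted p = 0.123). The difference between the effects, 0.33 with a 95% interval from -0.12 to 0.78, did not pass (adjusted p = 0.364). It was 0.53 without both libraries that stood apart, a fit with no replicate in the inhibitor groups. The inhibitor value itself was 0.37 without inhibitor replicate 2, 0.38 without both libraries that stood apart and 0.77 without inhibitor replicate 1. With a term for replicate number in the model it passed (values given at the end). From the highest level down, the groups ran shNBD1, inhibitors, inhibitor control and shRNA control, and neither the treated groups (adjusted p = 0.289) nor the controls (0.566) differed from each other beyond their spread.

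E2F1 encodes the transcription factor that switches on genes of S phase entry (ENSG00000101412, chromosome 20, 33675477 to 33686385). It had 14.8 and 18.6 CPM with shNBD1, against 17.4 and 18.6 CPM in the shRNA control. It had 17.9 and 17.7 CPM with the inhibitors, against 16.4 and 16.8 CPM in the inhibitor control. The shRNA arm overlapped, and the inhibitor libraries lay just above their controls. For E2F1 the log2 fold change was -0.11 ± 0.12 with shNBD1 (95% interval -0.38 to 0.17, adjusted p = 0.59) and 0.10 ± 0.12 with the inhibitors (-0.17 to 0.37, adjusted p = 0.708). The shNBD1 replicates of E2F1 differed by 1.26 times on 208 and 273 reads, and without shNBD1 replicate 1 the value was 0.049. No pair of the 4 groups differed beyond its spread.

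RBL2 encodes the pocket protein p130, which binds E2F factors and represses their targets in resting cells (ENSG00000103479, chromosome 16, 53434471 to 53491648). It had 53.3 and 48.2 CPM with shNBD1, against 55.7 and 49.9 CPM in the shRNA control. It had 56.5 and 45.8 CPM with the inhibitors, against 58.1 and 53.3 CPM in the inhibitor control. Both arms overlapped. For RBL2 the log2 fold change was -0.06 ± 0.11 with shNBD1 (adjusted p = 0.745) and -0.12 ± 0.11 with the inhibitors (adjusted p = 0.618), with 95% intervals from -0.30 to 0.18 and from -0.36 to 0.12. No pair of the 4 groups passed the test, the smallest adjusted p being 0.368 for shNBD1 against the inhibitor control.

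STAT3 encodes the transcription factor that the kinases of cytokine receptors of the interleukin-6 type activate (ENSG00000168610, chromosome 17, 42313324 to 42388442). It had 234 and 229 CPM with shNBD1, against 212 and 209 CPM in the shRNA control. It had 227 and 224 CPM with the inhibitors, against 242 and 217 CPM in the inhibitor control. The shNBD1 libraries lay above both of their controls and the inhibitor groups overlapped. Its log2 fold change was 0.14 ± 0.07 with shNBD1 (95% interval -0.02 to 0.29, adjusted p = 0.205), which passed on the 4 libraries of the arm alone (0.14, adjusted p = 0.0132) and without both libraries that stood apart (0.14, 0.0148). With the inhibitors it was -0.03 ± 0.07 (-0.18 to 0.13, adjusted p = 0.886), and no pair of the 4 groups passed the test.

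The receptor among the 8, TGFBR2, is the type II receptor that binds TGF-beta and phosphorylates the type I receptor (ENSG00000163513, chromosome 3, 30606356 to 30694142). It had 27.9 and 29.2 CPM with shNBD1, against 21.7 and 22.9 CPM in the shRNA control. It had 25.9 and 30.1 CPM with the inhibitors, against 20.2 and 21.1 CPM in the inhibitor control. All 4 treated libraries lay above all 4 control libraries, a pattern that was not counted over all genes. Within an arm, 34.7% of all genes lay wholly above the controls with shNBD1 and 20.5% with the inhibitors. TGFBR2 had a log2 fold change of 0.36 ± 0.10 with shNBD1 (adjusted p = 0.0369) and 0.43 ± 0.10 with the inhibitors (adjusted p = 0.121), and the difference was -0.07 with a 95% interval from -0.39 to 0.25 (adjusted p = 0.814). The shNBD1 call ended on leaving out any 1 library of the arm (adjusted p from 0.109 without shNBD1 replicate 1 to 0.239 without shRNA control replicate 1) and with DESeq2 (0.0979). The inhibitor value was 0.53 without inhibitor replicate 1 and 0.29 without both libraries that stood apart. With a term for replicate number in the model it passed (0.43, adjusted p = 0.0225). From the highest level down, the groups ran shNBD1, inhibitors, shRNA control and inhibitor control, and only the step between the inhibitors and the shRNA control exceeded the spread (adjusted p = 0.038).

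The apoptosis gene BCL2L11 encodes BIM, which binds and blocks the survival proteins of the BCL2 family (ENSG00000153094, chromosome 2, 111120914 to 111168445). It had 11.3 and 9.39 CPM with shNBD1, against 9.36 and 10.1 CPM in the shRNA control. It had 14.4 and 13.0 CPM with the inhibitors, against 11.8 and 12.7 CPM in the inhibitor control. The shRNA arm overlapped, while the inhibitor libraries lay above both of their controls. BCL2L11 had a log2 fold change of 0.09 ± 0.14 with shNBD1 (95% interval -0.22 to 0.40, adjusted p = 0.682) and 0.17 ± 0.13 with the inhibitors (-0.12 to 0.45, adjusted p = 0.535). With 123 to 249 reads per library, counting error alone was 6.34% to 9.02% of a value. From the highest level down, the groups ran inhibitors, inhibitor control, shNBD1 and shRNA control, with no pair of neighbours apart beyond its spread (adjusted p from 0.182 to 0.682), while the ends of the order differed (shRNA control minus inhibitors -0.50, adjusted p = 0.0179), as did shNBD1 and the inhibitors (shNBD1 minus inhibitors -0.41, 0.0391). The value between the controls was -0.34 ± 0.13 (adjusted p = 0.085), and -0.39 without both libraries that stood apart.

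**Figure D2:**
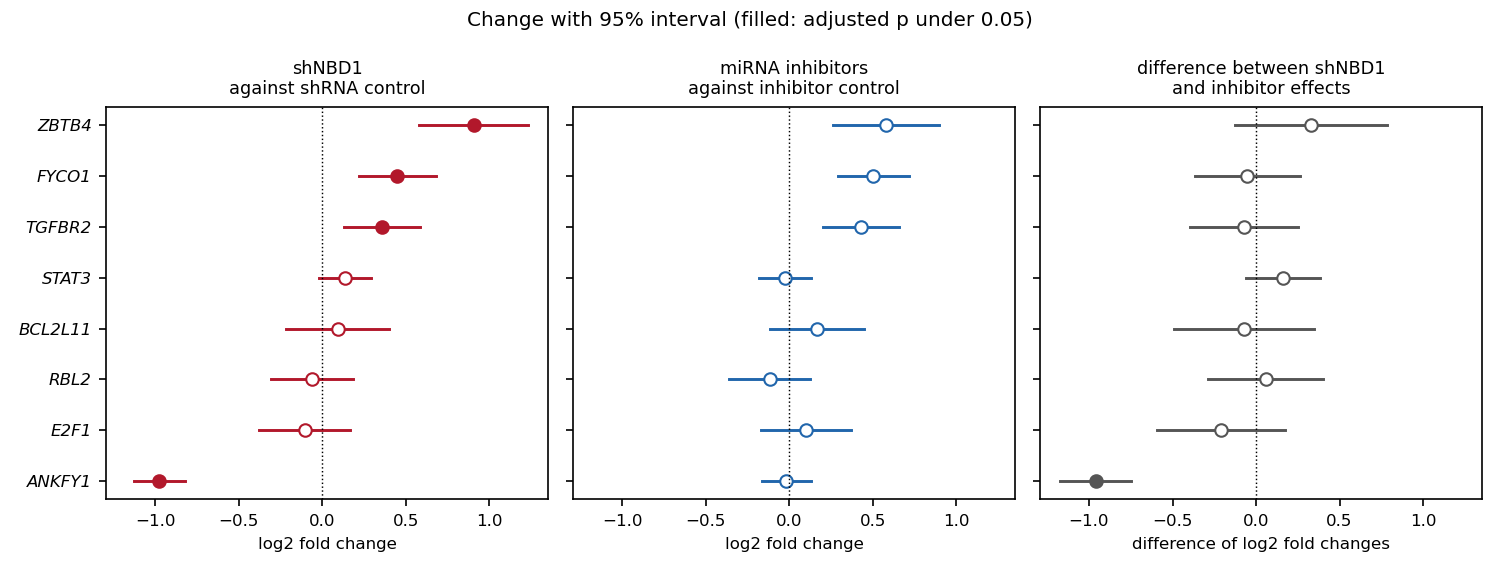
Log2 fold change of each gene (x axis, with 95% interval) with shNBD1, with the inhibitors, and the difference between these effects; filled points have an adjusted p under 0.05. ZBTB4, FYCO1 and TGFBR2 lie to the right of 0 in both treatments with filled points for shNBD1 only, and ANKFY1 is the one filled point of the difference, at -0.96.

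In the test of the difference between the effects 1 of 8 genes was called, ANKFY1, where 7.44% of all genes were, 3.48% higher and 3.96% lower. The other 7 had adjusted p from 0.359 to 0.867. Groups that did not overlap were common: with shNBD1 4 of the 8 genes lay wholly above and 1 wholly below the controls, where 69% of all genes did one or the other, 34.7% above and 34.3% below. With the inhibitors 5 lay wholly above, where 40.8% of all genes did one or the other, 20.5% above and 20.3% below. Of the 4 calls with shNBD1, those of ANKFY1 and ZBTB4 held under all 17 alternatives, with log2 fold changes from -0.98 to -0.96 and from 0.79 to 1.06, and these were the 2 calls left without any single library of the shRNA arm. Without both libraries that stood apart 5 of the 8 were called with shNBD1, STAT3 being the added one, among 5270 genes. With the inhibitors, 3 of the 8 genes passed without inhibitor replicate 1, ZBTB4, FYCO1 and TGFBR2, where 930 genes were called in all, while on the 4 libraries of the arm alone these genes had an adjusted p of 0.568. DESeq2 called 1 of the 8, FYCO1 (adjusted p = 0.021), among 118 genes.

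Between the controls, which serve one comparison each above, 1 of 8 genes was called, FYCO1, lower in the shRNA control, where 13.5% of all genes were called higher and 13.6% lower. Of the 8 genes 2 lay wholly higher in the shRNA control, E2F1 and TGFBR2, and 5 wholly lower, BCL2L11, ZBTB4, ANKFY1, FYCO1 and STAT3, where 67.1% of all genes did one or the other, 33.7% higher and 33.4% lower. The median over the 8 genes was -0.12, beside -0.0032 over all genes. Levels set across the arms carry this difference between the controls, whose cause was not tested.

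**Figure D3:**
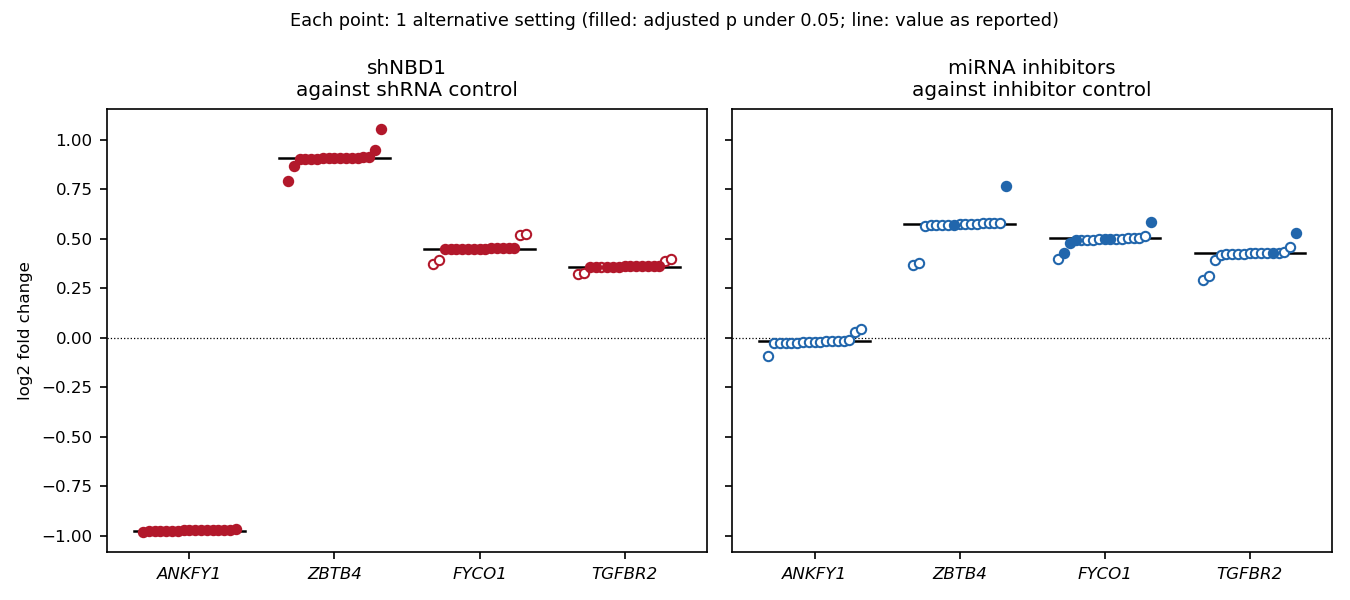
Log2 fold changes (y axis) of ANKFY1, ZBTB4, FYCO1 and TGFBR2 under each of 17 alternative settings, in order of size; filled points have an adjusted p under 0.05 and the line is the value as reported. ANKFY1 and ZBTB4 are filled throughout with shNBD1, and with the inhibitors ZBTB4, FYCO1 and TGFBR2 stay above 0, from 0.29 to 0.77, and are filled in 2, 6 and 2 settings.

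As a wider list, 30 other genes known as targets of the family were taken. With shNBD1 5 rose and 5 fell, 10 of 30 where 18.3% of all genes were called, with a median log2 fold change of -0.05. Those that fell were KAT2B, a histone acetyltransferase, at -1.35 ± 0.17, the cyclins CCNG2 at -0.91 ± 0.19 and CCND2 at -0.86 ± 0.09, the transcription factor E2F3 at -0.39 ± 0.09 and CDKN1A, the cell cycle inhibitor p21, at -0.36 ± 0.09. Those that rose were LIMK1, a kinase of actin regulation, at 0.87 ± 0.14, TNFAIP1 at 0.49 ± 0.09, PKD2, a cation channel, at 0.44 ± 0.12, TIMP2, an inhibitor of matrix proteases, at 0.39 ± 0.08 and APP, the amyloid precursor protein, at 0.36 ± 0.06. KAT2B had 4.34 and 5.04 CPM with shNBD1, against 13.1 and 10.6 CPM in the shRNA control, and LIMK1 averaged 16.3 CPM, against 8.85 CPM. These 10 calls had adjusted p from 0.000204 to 0.0331, and without any 1 library of the arm between 2 and 4 genes rose and 2 or 3 fell, while without both libraries that stood apart 9 rose and 10 fell. Between the controls 3 of the 30 were called higher in the shRNA control and 3 lower, where 13.5% and 13.6% of all genes were. Of the 10 genes called with shNBD1, those called there were CCNG2 at 0.63 ± 0.17, CCND2 at -0.26 ± 0.08 and TIMP2 at -0.59 ± 0.08. The part of this difference in the changes with shNBD1 was not tested. With the inhibitors 0 of 30 were called, 16 of 30 were positive and the median was 0.03. The smallest p was that of ARID4B, a chromatin protein that binds RB1, with 97.6 and 97.6 CPM against 80.0 and 72.2 CPM in the control (0.36 ± 0.07, adjusted p = 0.0948). Without any 1 library of that arm between 0 and 5 rose and between 0 and 2 fell, and without both libraries that stood apart 3 rose and 0 fell. CCND2, which fell with shNBD1, stood at 0.31 ± 0.08 with the inhibitors (adjusted p = 0.138).

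**Figure D4:**
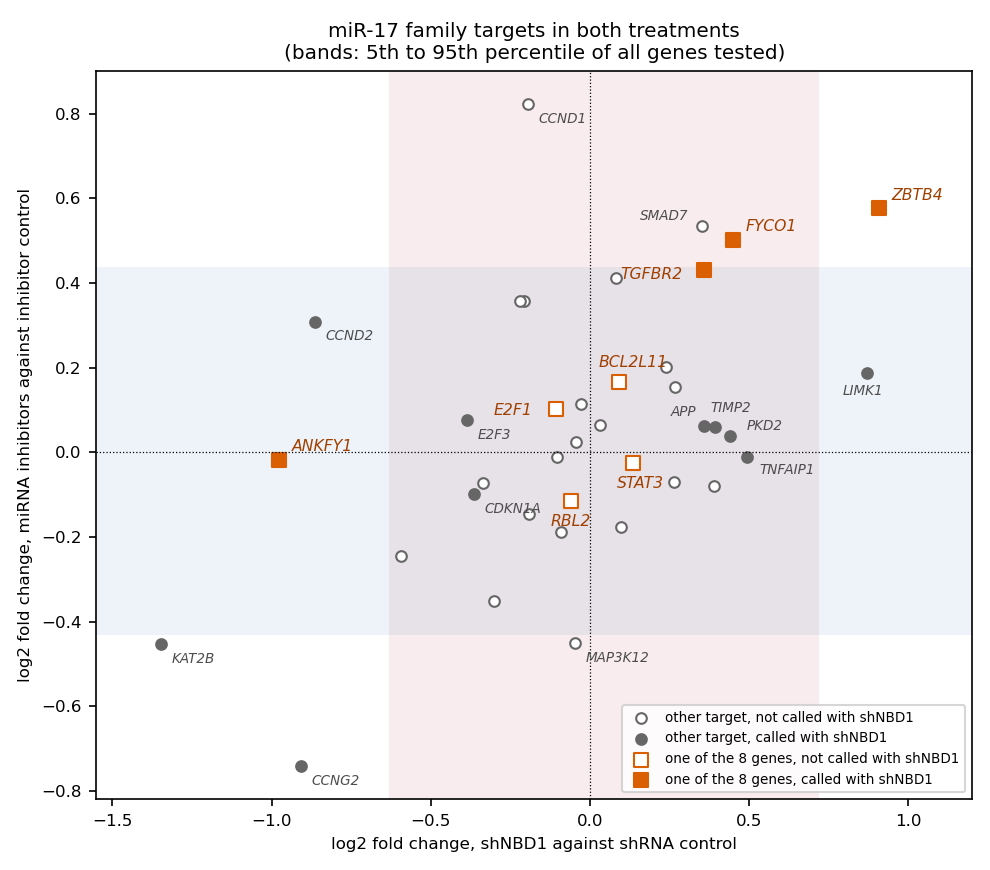
Log2 fold change with shNBD1 (x axis) against that with the inhibitors (y axis) for the 8 genes (squares) and 30 other targets (circles), filled where called with shNBD1; bands span the 5th to 95th percentile of all genes tested. ZBTB4 lies outside both bands at the upper right, KAT2B and CCNG2 outside both at the lower left, and ANKFY1 outside the band for shNBD1 only.

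Around E2F1 and RBL2, 1 of 11 other E2F and pocket proteins fell with shNBD1, E2F3, which the wider list also holds, and 0 rose, with a median of 0.0036. E2F target genes of S phase fell in 6 of 16 cases and rose in 0, where 9.15% of all genes fell and 9.18% rose, with a median of -0.13. Cyclin E2 (CCNE2) fell to 23.5 and 21.9 CPM, against 35.6 and 33.4 CPM in the control (-0.61 ± 0.09), and PCNA, the sliding clamp of replication, to 476 and 509 CPM, against 684 and 689 CPM (-0.48 ± 0.09). Cyclin E1 (CCNE1) fell by 0.37 ± 0.10 on the log2 scale. Adjusted p-values of these 3 ran from 0.00223 to 0.0273. Between the controls 6 of the 16 were called higher in the shRNA control and 0 lower, where 13.5% and 13.6% of all genes were. There CCNE2 stood at 0.70 ± 0.09, CCNE1 at 0.32 ± 0.10 and PCNA at 0.0072 ± 0.0889. The part of this difference in the fall with shNBD1 was not tested. Without any 1 library of the arm between 1 and 3 of the 16 fell, and without both libraries that stood apart 1 rose and 8 fell. With the inhibitors 0 of 16 and 0 of 11 were called, led by CDC25A, a phosphatase of cell cycle kinases, at 0.53 ± 0.10 (adjusted p = 0.0803) and TFDP1, the partner of E2F factors, at -0.20 ± 0.07 (0.22). Without any 1 library of that arm between 0 and 3 of the 16 rose and 0 or 1 fell, with 3 and 1 without inhibitor control replicate 2.

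Around TGFBR2, 5 of 18 ligands, receptors and SMADs rose with shNBD1 and 0 fell, where 9.18% of all genes rose and 9.15% fell, and the median was 0.0067. The ligand TGFB2 had 8.53 and 7.62 CPM, against 4.05 and 3.77 CPM in the control (1.04 ± 0.22), and the activin receptor ACVR2B averaged 11.7 CPM, against 6.35 CPM (0.89 ± 0.16). The type I receptors ACVR1 and ACVR1B rose by 0.43 ± 0.09 and 0.35 ± 0.09, and SMAD3, which carries the signal to the nucleus, by 0.38 ± 0.11, with adjusted p from 0.0043 to 0.0404 over the 5. Of the 18 genes 9 were positive. The lowest values were TGFBR1 at -0.38 ± 0.13, ACVR2A at -0.34 ± 0.12 and SMAD5 at -0.32 ± 0.11, none of them called (adjusted p from 0.060 to 0.0824). Between 0 and 2 of the 18 rose without any 1 library of the arm, and without both libraries that stood apart 6 rose and 3 fell. With the inhibitors 0 of 18 were called, and SMAD4, the shared SMAD, had the smallest p at -0.27 ± 0.10 (adjusted p = 0.23).

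Around STAT3, 3 of 17 genes of the JAK-STAT pathway rose with shNBD1 and 0 fell, with a median of 0.12, a share of calls near the 18.3% of all genes. STAT5A had 9.17 and 9.80 CPM, against 4.45 and 4.83 CPM in the control (1.04 ± 0.15), the interleukin-6 receptor IL6R 18.8 and 22.3 CPM, against 9.96 and 10.5 CPM (1.01 ± 0.21), and STAT5B rose by 0.44 ± 0.09 (adjusted p from 0.00153 to 0.00972). Between 1 and 3 of the 17 rose without any 1 library of the arm, and without both libraries that stood apart 6 rose and 1 fell. Between the controls 1 of the 17 was called higher in the shRNA control and 3 lower, where 13.5% and 13.6% of all genes were. There STAT5A stood at -0.63 ± 0.15, while IL6R at 0.34 ± 0.22 and STAT5B at 0.05 ± 0.09 were not called. The part of this difference in the rise with shNBD1 was not tested. IL6R had the smallest p with the inhibitors, at 0.77 ± 0.22 (adjusted p = 0.148), where 0 of 17 were called. Of 16 genes in the BCL2 family list, which includes the dynein light chains DYNLL1 and DYNLL2, 2 rose and 2 fell with shNBD1. Of all genes 9.18% rose and 9.15% fell, and the median of the list was 0.28. BAX, which opens the outer mitochondrial membrane, averaged 141 CPM with shNBD1, against 196 CPM in the control (-0.48 ± 0.09, adjusted p = 0.00438), and the survival gene BCL2 fell by 0.66 ± 0.20 (0.0431). DYNLL2, a dynein light chain that binds pro-apoptotic proteins of the family, rose by 0.49 ± 0.08 (0.00204) and BOK, a relative of BAX with a mean of 32.8 reads per library, by 0.85 ± 0.26 (0.0447). Between the controls 3 of the 16 were called higher in the shRNA control and 4 lower, where 13.5% and 13.6% of all genes were. There BCL2 stood at 0.87 ± 0.19 and DYNLL2 at -0.72 ± 0.07, while BAX at 0.11 ± 0.08 and BOK at 0.57 ± 0.29 were not called. The part of this difference in the changes with shNBD1 was not tested. Without any 1 library of the arm 1 of the 16 rose and 0 or 1 fell, and without both libraries that stood apart 7 rose and 2 fell. With the inhibitors 0 of 16 were called, with BAX at -0.42 ± 0.09 (adjusted p = 0.0934). Without inhibitor control replicate 2, 3 of the 16 rose and 2 fell, without inhibitor replicate 1, 2 rose and 1 fell, and without both libraries that stood apart 0 rose and 2 fell.

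Around ANKFY1 and FYCO1, 2 of 19 partners in endosome and autophagosome traffic rose with shNBD1 and 1 fell, a share of calls below the 18.3% of all genes, with a median of -0.092. PLEKHM1, which binds Rab7 and LC3, rose by 0.44 ± 0.12, MAP1LC3B, an LC3 gene, by 0.29 ± 0.07, and VPS41, of the HOPS tether of late endosomes, fell by 0.38 ± 0.10 on the log2 scale (adjusted p from 0.0196 to 0.0341). Leaving out any 1 library of the arm left 0 of the 19 called, and without both libraries that stood apart 2 rose and 4 fell. With the inhibitors 0 of 19 were called, with EHD1, of endosome recycling, at 0.41 ± 0.12 (adjusted p = 0.162). Around ZBTB4, 0 of 6 methyl-CpG-binding proteins were called in either treatment by edgeR (2 with shNBD1 without both libraries that stood apart), with MBD2 at 0.26 ± 0.13 with the inhibitors (adjusted p = 0.334).

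Among 14 tested regulators and partners of the microRNA family, 3 rose with shNBD1 and 0 fell: LIN28B, which blocks let-7 maturation, at 1.08 ± 0.13, and the silencing proteins AGO1 and TNRC6C at 0.40 ± 0.09 each (adjusted p from 0.000677 to 0.0139), with a median of -0.027 and where 18.3% of all genes were called. Between the controls 0 of the 14 were called higher in the shRNA control and 5 lower, where 13.5% and 13.6% of all genes were. LIN28B averaged 15.4 CPM with shNBD1, 7.32 CPM in the shRNA control and 12.8 CPM in the inhibitor control. The part of this difference in the rise with shNBD1 was not tested. Without any 1 library of the shRNA arm 1 or 2 of the 14 rose, and without both libraries that stood apart 3 rose and 2 fell. With the inhibitors 1 of 14 rose and 0 fell, where 0.0376% of all genes were called higher and 0.0827% lower. It was the scaffold TNRC6A, with 86.9 and 91.3 CPM, against 53.3 and 61.1 CPM in the control (0.64 ± 0.08, adjusted p = 0.028, edgeR). On the 4 libraries of the inhibitor arm alone 0 of the 14 were called. Of the 14 genes 13 were positive, with a median of 0.26, beside 0.0066 over all genes tested. Without any 1 library of the inhibitor arm between 0 and 5 of the 14 rose, and without both libraries that stood apart 5. The medians of the other pathway lists with the inhibitors, marker lists aside, ran from -0.022 for the S phase genes to 0.091 for the BCL2 family list.

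The genes whose log2 CPM followed each of the 8 most closely over the 8 libraries were taken from 10908 others with a mean of at least 50 counts. This is a description over libraries that share treatment and arm, and many genes come close. For ANKFY1 they were IARS1 (Pearson r = 0.99) and CAPZA1 (0.99), and 353 genes had an r over 0.9. For FYCO1 they were RPL12 (0.98) and JAK1 (0.98), for ZBTB4 TRIB1 (0.97) and IP6K1 (0.96), and for TGFBR2 TRAF3IP2 (0.99) and TAF4B (0.98). For BCL2L11 they were RAB38 (0.98) and E2F5 (0.96), for STAT3 FARP2 (0.98) and STARD9 (0.95), and for RBL2 TMEM263 (0.95) and RALA (0.95). For E2F1 they were BCAM (0.96) and CLK2 (0.84).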

How the data were processed

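Ribosome footprints were measured in 8 libraries of 293T cells. The deposited values are raw read counts, 1 whole number per feature (a gene paired with a transcript). The submitters' processing notes list cutadapt, Bowtie and GRCh38; how rRNA reads and reads matching several genes were handled, and what counted them, is not stated there. Features absent from a library's table were set to 0. The 18037 features were summed to 17179 symbols. Groups were compared with edgeR 4.0.16 (limma 3.58.1, R 4.3.3): filterByExpr (minimum count 10, minimum total 15), TMM scaling, and 1 quasi-likelihood model with a mean per group, fitted to the 8 libraries together (4 residual degrees of freedom). Calls needed a Benjamini-Hochberg p under 0.05, over 13306 genes. The SE is the one implied by the test. Intervals and errors do not cover amplification of reads.

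The 8 genes, the other lists and the alternatives were chosen with earlier results of these data known, and the fit without both libraries that stood apart was added after the values were seen. That fit has 1 library in each inhibitor group, so its p-values for the inhibitors rest on the spread of the shRNA arm. Of each other list the text names up to 4 called genes of largest change, or the 1 of smallest p. Further names where 5 or fewer were called (TNFAIP1, PKD2, TIMP2, APP, E2F3, CDKN1A, ACVR1B), and CCND2 with the inhibitors, were chosen after their values were seen. So were TGFBR1, ACVR2A and SMAD5 with shNBD1, and the genes of these lists given between the controls. Of the genes the rule names, 2 are not reported here. Coordinates and microRNA sequences are from RefSeq tables for GRCh38.p14, in which all 8 genes matched by symbol. Alternatives were DESeq2 1.42.0, RLE scaling, scaling without the 3 dominant features, other count filters, the 4 libraries of a comparison alone, the top feature per gene, a replicate block and leaving out each library. The steps were tested on simulated counts. MAP1LC3B2, MBD1, NEFL, RABEP1, RABGEF1 and UHRF1 were not analysed here.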

Additional observations from a re-analysis of the deposited data

Results flagged for a closer look

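The effects of the treatments on ANKFY1 differed by -0.96 on the log2 scale (shNBD1 effect minus inhibitor effect, adjusted p = 0.000563 in edgeR's test of the difference itself), with -0.98 for shNBD1 and -0.02 for the inhibitors. Both shNBD1 libraries lay below both of their controls, and the inhibitor libraries lay on either side of theirs. The difference passed under all 16 alternatives, from -1.02 to -0.88.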

How the results depend on the processing

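The number of genes called depended on the libraries in the fit, and the cause was not tested. With shNBD1 2440 genes were called, 5314 on the 4 libraries of the arm, 5270 without both libraries that stood apart and 532 to 3033 without 1 library, and of the 8 targets 4, then 5, 5 and 2 to 4. With the inhibitors 16 genes were called, 118 with DESeq2, 179 with no count filter, 0 on the 4 libraries of the arm, 501 without both libraries and 0 to 930 without 1, and of the targets 0, then 1, 1, 0, 1 and 0 to 3. The difference between effects had 990 genes, 3738 without both libraries and 187 to 1135 without 1, with 1 target, or 2 without both. Between the controls the counts were 3611, 2389 with DESeq2, 5673 without both and 1077 to 4319 without 1, with 1 target, or 2 without both. The replicate block gave 675 genes (355 higher, 320 lower) and 3 targets with the inhibitors, ZBTB4 (0.57, adjusted p = 0.0322), FYCO1 (0.50, 0.0122) and TGFBR2 (0.43, 0.0225), and 1868 genes for the difference. Under it 5 of the 30 other targets rose and 1 fell with the inhibitors, 2 of the 16 S phase genes rose, 1 of the 16 genes in the BCL2 family list rose and 2 fell, and 5 of the 14 regulators rose. Deviations of same-numbered libraries correlated at 0.0444 in the shRNA arm and 0.606 in the inhibitor arm. They correlated at 0.249 between shNBD1 and the inhibitors and at 0.266 between shNBD1 and the inhibitor control. Between the shRNA control and those groups the values were 0.0228 and 0.00489. The labels name no shared batch, so whether libraries with the same number form pairs cannot be told. The main fit has no replicate term. Signs turned only for uncalled values. Without 1 library, shNBD1 values ran from -0.046 to 0.22 (BCL2L11), -0.28 to 0.049 (E2F1) and -0.13 to 0.027 (RBL2). Inhibitor values ran from -0.090 to 0.028 (ANKFY1), -0.30 to 0.010 (RBL2) and -0.10 to 0.050 (STAT3), and differences from -0.21 to 0.068 (BCL2L11), -0.13 to 0.055 (FYCO1), -0.066 to 0.24 (RBL2) and -0.17 to 0.049 (TGFBR2). Without both libraries the inhibitor values were 0.047 (ANKFY1), 0.082 (RBL2) and 0.064 (STAT3), and the differences 0.021 (FYCO1), -0.14 (RBL2) and 0.068 (TGFBR2). The fit on 4 libraries alone could not give the difference. Counting error reached 9.02% per library for BCL2L11 and 8.94% for ZBTB4.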
